A study of Mus musculus with 8 samples.

Results

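The DMRT transcription factors share the DM domain, a zinc-binding DNA-binding domain named after doublesex of the fly and mab-3 of the worm. Described here are 6 members, namely Dmrt1, Dmrt2, Dmrt3, Dmrta1, Dmrta2 and Dmrtb1, out of 19938 genes that the arrays measured with a probe set of their own. They were chosen by name. Each gene was read from the probe sets that carry its symbol and no other, selected on the highest mean signal over all 8 arrays. Each of the 6 had exactly 1 such probe set, so this mean decided nothing.

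The arrays held total RNA from cultures of mouse spermatogonial stem cells, from which sperm production is renewed throughout life. In the short-culture group (n = 3) the cells came from donors aged 8 days and had been in culture for 7 to 10 weeks. In the young long-culture group (n = 3) the donors were also 8 days old and the culture had lasted 14 to 18 months. In the serial long-culture group (n = 2) the cells had been serially transplanted, with 1500 days as the labelled age, and the culture again lasted 14 to 18 months. Every array thus held cultured cells, serial transplantation and donor age came together and cannot be told apart, and no cells taken straight from a testis were among the groups. No strain or genotype is given in the labels, and they leave unsaid whether replicates were separate cultures. The p-values therefore cover only the spread among these arrays, and that spread may be technical.

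DMRT1 is made by Sertoli cells and by spermatogonia. In male germ cells it is known to hold back the response to retinoic acid, limiting Stra8 and meiotic entry and promoting Sohlh1, and in Sertoli cells it keeps the male fate against Foxl2. DMRTB1, also called DMRT6, acts later, in differentiating spermatogonia, where it is known to help close the mitotic programme before meiosis. The other members are best known outside the testis: DMRT2 in somites and the axial skeleton, DMRT3 in spinal interneurons of gait, DMRTA2 in the patterning of the cerebral cortex, and DMRTA1 in the embryonic brain and the ovary.

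The deposited signals were on a log2 scale with array medians between 6.90 and 6.98, and they carried no call of presence. Of 16 germ cell markers 15 lay above the median of all probe sets, 6.94, as the label of the cells implies (Dppa3 did not). Markers of other cell types were also present: 15 of 18 fibroblast and peritubular genes and 6 of 14 Sertoli genes lay above that median. So did 1 of 5 Leydig, 1 of 8 macrophage and 0 of 5 endothelial genes. Where the cells behind these signals came from was not tested. The Sertoli genes were divided: Sox9 (mean 8.27), Wt1 (8.46), Clu (8.89), Trf (8.70), Gata4 (7.10) and Aard (7.02) lay above the median, while Amh (5.96), Fshr (5.51) and Dhh (6.19) were among those below it. Short-culture replicate 2 stood apart, with correlations of 0.9906 and 0.9904 to the other short-culture arrays, which correlated at 0.9960 with each other. It had the highest summed fibroblast signal and the lowest summed germ cell signal of the 8 arrays.

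Whether a member was at background was read from 3 marks: the median of all probe sets (6.94), the lower quartile of each array (5.32 to 5.52), and 26 genes of unrelated organs such as liver, retina and pancreas, whose means ran from 3.02 to 7.70 with a 95th percentile of 7.14. Dmrta1 was the 1 member at background, with a mean of 5.49, no array above the median and 15 of the 26 organ genes brighter. Its mean lay within the range of the lower quartiles. Among the probe sets of its own array it ranked at percentiles from 23.0 to 31.0, so on some arrays it lay above the lower quartile. Dmrt1 (mean 10.94), Dmrtb1 (8.58) and Dmrt3 (8.30) had every array above 7.70, the highest organ mean. Dmrta2 had a mean of 7.38 and passed the median and the 95th percentile on all 8 arrays, although 1 organ gene was brighter, so it was close to background. Dmrt2 changed position: in short culture its signals lay within the range of the organ genes, and in both long-culture groups they lay above it.

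**Figure D1:**
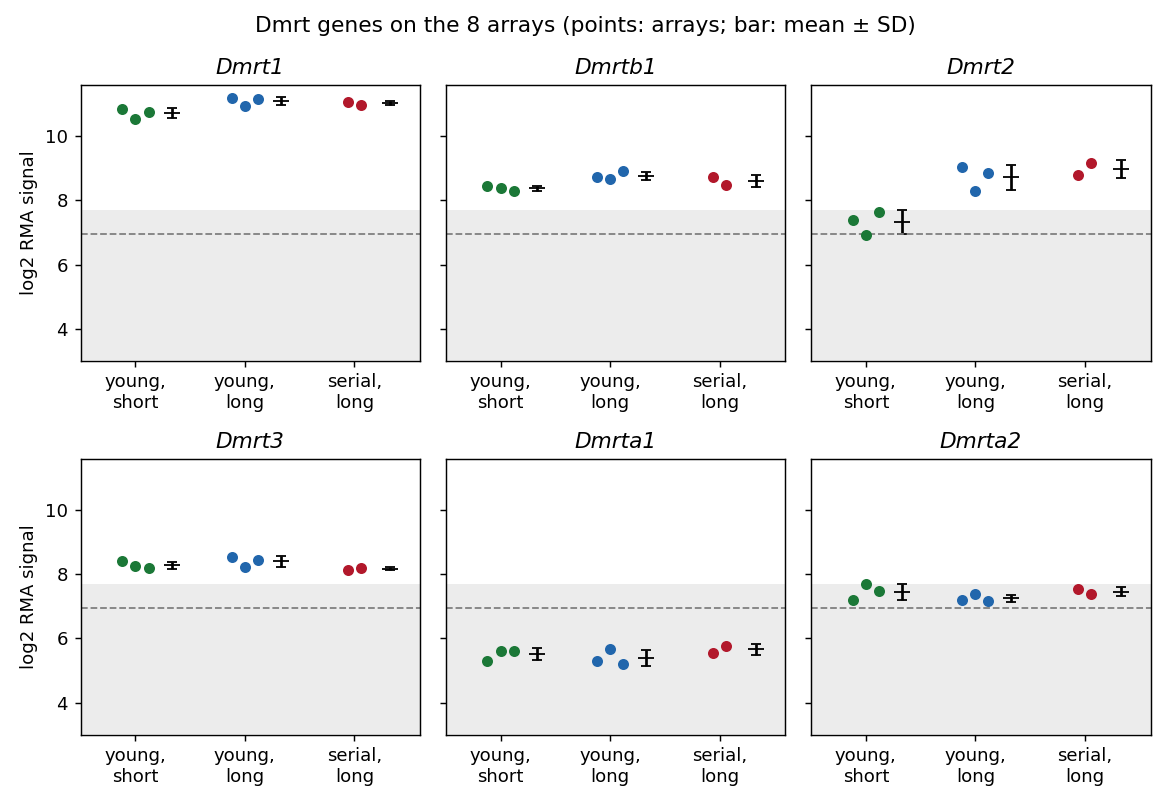
Log2 RMA signal (y axis, starting at 3) of the 6 Dmrt genes on each array (points) in the 3 groups, with the mean ± SD beside them. The grey band is the range of 26 genes of unrelated organs, 3.02 to 7.70, and the dashed line the median of all probe sets, 6.94: Dmrt2 leaves the band in both long-culture groups, while Dmrta1 stays below the line on every array.

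Dmrt2, the somite factor, was the member that differed most between long and short culture. Its log2 signals were 7.39, 6.91 and 7.65 in short culture, 9.03, 8.28 and 8.84 in long culture of young donors, and 8.79 and 9.17 in serial long culture. Every long-culture array lay above every short-culture array, with replicate 2 the lowest of its group in both young groups. Group means were 7.32 ± 0.37 (SD, n = 3), 8.72 ± 0.39 (n = 3) and 8.98 ± 0.27 (n = 2). Dmrt2 rose by 1.40 ± 0.21 (SE) on the log2 scale in young long culture, a 2.64-fold change (95% interval 0.93 to 1.87, limma adjusted p = 0.00389). It rose by 1.66 ± 0.24 in serial long culture against short culture, 3.17-fold (interval 1.14 to 2.19, limma adjusted p = 0.00401). Both comparisons use the same short-culture arrays, and the second also differs in donor age and transplantation, which cannot be told apart from length of culture. Among the probe sets of its own array, Dmrt2 ranked at percentiles from 48.8 to 59.8 in short culture and from 69.2 to 79.9 in the long-culture arrays. Since the short-culture signals lay near background, where array signals are compressed, the folds may understate the change in RNA.

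The rise in young long culture held under all 18 alternative settings, with limma adjusted p between 0.000615 and 0.0250. The rise in serial long culture was lost without serial long-culture replicate 2, where it was 1.47 with a limma adjusted p of 0.0842. Over its alternatives the limma adjusted p ran from 0.00124 to 0.0842. In the same setting the number of all probe sets called in that comparison was 66 in place of 2528.

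Dmrtb1, the factor of differentiating spermatogonia, had signals of 8.44, 8.39 and 8.29 in short culture, 8.72, 8.66 and 8.91 in young long culture, and 8.73 and 8.47 in serial long culture. The young groups did not overlap, and the lower serial array lay just above the highest short-culture array. Means were 8.37 ± 0.08, 8.76 ± 0.13 and 8.60 ± 0.19 (SD). Dmrtb1 rose by 0.39 ± 0.11 (SE) in young long culture, 1.31-fold (interval 0.15 to 0.64, limma adjusted p = 0.0426). This call was lost under 11 of 18 alternatives, among them the removal of any 1 of the 6 arrays of the young groups, which gave 0.32 to 0.44 with limma adjusted p from 0.0576 to 0.184. The serial group differed from short culture by 0.23 ± 0.12 (interval -0.04 to 0.50, limma adjusted p = 0.323).

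Dmrt1, the regulator of the mitosis to meiosis decision, had signals of 10.86, 10.54 and 10.76 in short culture, 11.19, 10.94 and 11.17 in young long culture, and 11.08 and 10.99 in serial long culture. All 5 long-culture arrays lay above the 3 short-culture arrays. Means were 10.72 ± 0.17, 11.10 ± 0.14 and 11.04 ± 0.06 (SD). The difference in young long culture was 0.38 ± 0.11 (SE), 1.31-fold (interval 0.13 to 0.64), and it did not pass, with a limma adjusted p of 0.0529. It passed under 6 of 18 alternatives, array weights giving the lowest limma adjusted p, 0.0209, and was at 0.16 with 0.402 when the arrays were centred on the germ cell markers. The serial group differed from short culture by 0.32 ± 0.13 (interval 0.04 to 0.60, limma adjusted p = 0.168).

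Dmrt3, the neighbour of Dmrt1 and Dmrt2 on chromosome 19, did not share the change of Dmrt2. Its signals were 8.40, 8.24 and 8.19 in short culture, 8.54, 8.21 and 8.44 in young long culture, and 8.14 and 8.20 in serial long culture. The young groups overlapped, while both serial arrays lay just below all young long-culture arrays. The differences were 0.12 (interval -0.12 to 0.36, limma adjusted p = 0.535) in young long and -0.10 (interval -0.38 to 0.17, limma adjusted p = 0.716) in serial long culture, both against short culture. For Dmrta2, the cortical factor, the signals were 7.20, 7.69 and 7.47, then 7.20, 7.37 and 7.17, then 7.55 and 7.37 in the same order of groups. The groups overlapped, with differences from short culture of -0.20 (interval -0.49 to 0.08, limma adjusted p = 0.353) and 0.01 (interval -0.31 to 0.33, limma adjusted p = 0.982). Dmrta1 had signals of 5.29, 5.61 and 5.62, then 5.28, 5.66 and 5.19, then 5.54 and 5.77. These are values at background, with differences from short culture of -0.13 (interval -0.45 to 0.18) and 0.15 (interval -0.20 to 0.50).

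In young long against short culture, 2 of the 6 members passed, both higher, where 11.3% of all probe sets passed, 5.43% as higher and 5.83% as lower. The same count was 1 of 6 in serial long against short culture, where 8.73% passed, 3.58% as higher and 5.15% as lower. Arrays of the groups did not overlap for 3 members in each of these comparisons (Dmrt1, Dmrt2 and Dmrtb1), against 31.4% and 37.3% of all probe sets. With 6 members these counts are descriptions. The median difference over the members was 0.25 in young long and 0.19 in serial long culture, beside -0.04 and -0.00 over all probe sets.

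The serial and young long-culture groups differ in donor and transplantation history at the same length of culture. No member passed there, and no probe set did (0.00%), although 2079 of 28944 had an unadjusted p under 0.05 in limma and other settings called up to 22. For Dmrt2 the serial group was higher by 0.26 ± 0.24 (SE), with an interval of -0.26 to 0.79, which does not exclude a further rise of that size. Dmrt1 differed by -0.07 (interval -0.35 to 0.21), Dmrtb1 by -0.16 (-0.44 to 0.11) and Dmrt3 by -0.22 (-0.50 to 0.05). For Dmrt3 alone the arrays of these groups did not overlap, as for 25.7% of all probe sets. Dmrta2 differed by 0.21 (-0.10 to 0.53) and Dmrta1 by 0.28 (-0.07 to 0.63), the latter at background. The limma adjusted p of the 6 members lay between 0.770 and 0.951.

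**Figure D2:**
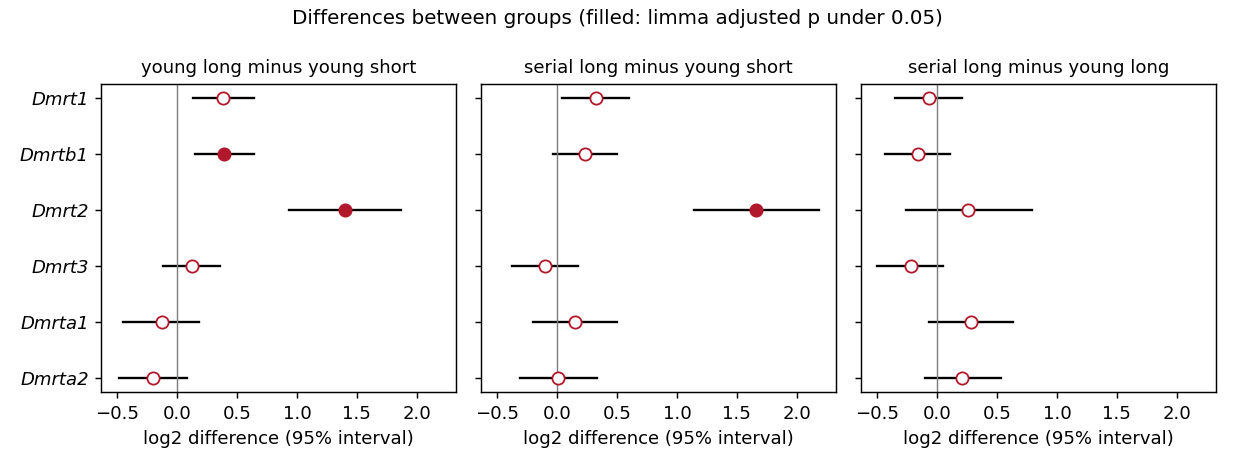
Log2 differences between group means (x axis) of the 6 Dmrt genes with limma's 95% intervals, in 1 panel per comparison, filled where the adjusted p is under 0.05. Dmrt2 stands clear of 0 at 1.40 and 1.66 against short culture, Dmrtb1 is filled at 0.39 in young long culture, and no interval in serial against young long culture lies off 0.

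The marker signals of several cell types moved with the same groups. In bulk RNA, fewer cells of a type and less RNA per cell cannot be told apart. The summed signal of the 16 germ cell markers, on the log2 scale, was 14.19 to 14.61 in short, 14.64 to 14.74 in young long and 14.74 on both serial long-culture arrays. That of the 18 fibroblast and peritubular genes was 15.02 to 15.59, then 14.38 to 14.43, then 13.81 to 14.40, and 13 of them fell in each comparison with short culture. In serial long culture none fell without serial replicate 2, and in young long culture 8 fell without replicate 1 or 2 of that group and 6 without its replicate 3. The macrophage sums were 9.65 to 10.21, 8.87 to 8.94 and 8.87 to 9.16, and 4 of the 8 genes fell in each comparison with short culture (2 in serial long culture without serial replicate 2). The Leydig sums were 8.83 to 9.65, 8.00 to 8.16 and 8.10 to 8.16 in the same order. The summed Sertoli genes stayed close, at 11.23 to 11.34, 11.13 to 11.28 and 11.33 to 11.47. A sum is led by its brightest genes, and single Sertoli genes went both ways. Of 14, 2 rose and 1 fell in young long culture, and 3 rose and 1 fell in serial long culture. Both counts moved when single arrays were left out. Beside the counts of these cell types, 5.43% of all probe sets rose and 5.83% fell in young long culture. In serial long culture the shares were 3.58% and 5.15%. The endothelial sums were 8.48 to 8.65, 8.28 to 8.34 and 8.21 to 8.43. Thus the germ cell signal was higher, and the fibroblast, macrophage and Leydig signals were lower, in the arrays where Dmrt2, Dmrtb1 and Dmrt1 were higher.

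Set against the median germ cell marker of its own array, Dmrt2 was at -2.60, -2.71 and -2.42 in short culture, -1.11, -1.81 and -1.29 in young long culture, and -1.34 and -0.97 in serial long culture. On this scale the short-culture arrays still lay below all long-culture arrays, while the long-culture groups overlapped. With all arrays centred on these markers, a scaling chosen after the data were seen, Dmrt2 was higher by 1.18 in young long culture (limma adjusted p = 0.00635) and by 1.42 in serial long culture (limma adjusted p = 0.00496). Dmrtb1 was at 0.17 (limma adjusted p = 0.451) and -0.01 (limma adjusted p = 0.973), and Dmrt1 at 0.16 (limma adjusted p = 0.402) and 0.08 (limma adjusted p = 0.737). Against the median marker, Dmrtb1 was at -1.56, -1.24 and -1.78 in short and -1.42, -1.42 and -1.22 in young long culture. Of the short-culture arrays only replicate 2, with the lowest germ cell signal, overlapped the young long-culture arrays there. The serial arrays were at -1.40 and -1.67. The median difference of the germ cell markers themselves from short culture was 0.28 in young long and 0.34 in serial long culture, beside 0.38 and 0.32 for Dmrt1 and 0.39 and 0.23 for Dmrtb1.

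**Figure D3:**
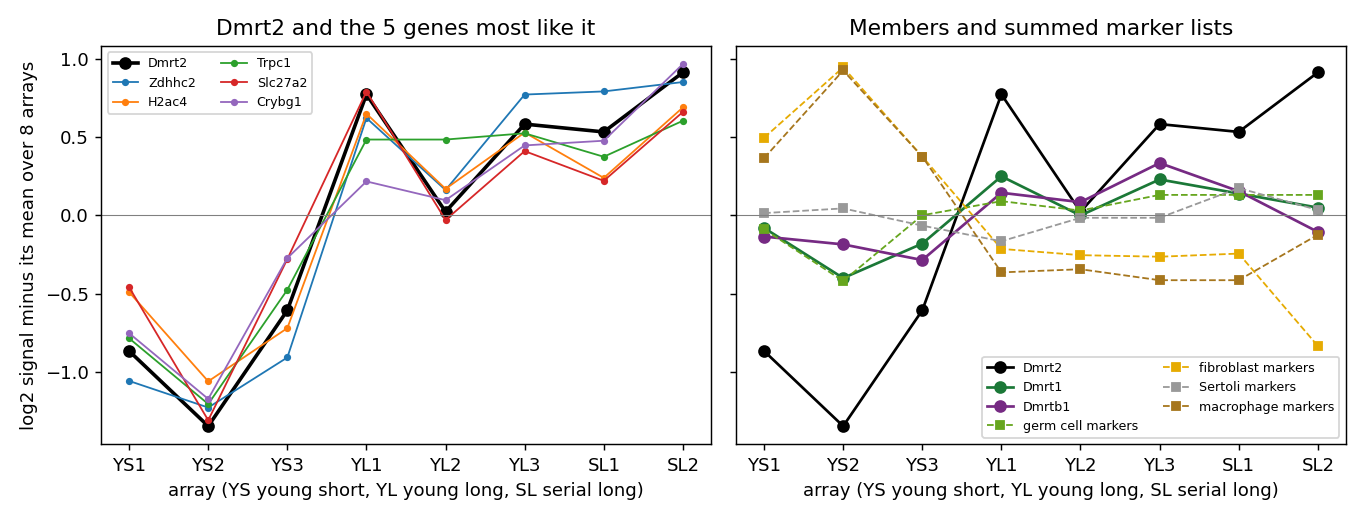
Log2 signal minus its own mean over the 8 arrays (y axis) on each array (x axis), for Dmrt2 and the 5 genes most like it (left) and for Dmrt2, Dmrt1, Dmrtb1 and the summed marker lists (right). Lines only join the points of a gene or list: Dmrt2 lies below 0 on all short-culture arrays and lowest on replicate 2, where the fibroblast markers are highest and the germ cell markers lowest.

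Dmrt1, Dmrt3 and Dmrt2 lie side by side on mouse chromosome 19, in that order between Kank1 and Smarca2 (RefSeq, GRCm38.p6). The change did not extend along this stretch. Kank1 differed from short culture by 0.17 ± 0.15 (SE, limma adjusted p = 0.519) in young long and -0.19 ± 0.17 (limma adjusted p = 0.596) in serial long culture. Smarca2, a chromatin remodelling ATPase, differed by -0.23 ± 0.19 (limma adjusted p = 0.489) in young long culture and fell by 0.87 ± 0.21 in serial long culture (limma adjusted p = 0.0291). That fall was lost under 6 of 18 alternatives, 4 of them with 1 array left out (serial long-culture replicate 1 or 2, or short-culture replicate 1 or 2), with limma adjusted p up to 0.248. On chromosome 4, none of the neighbours of Dmrta1 (Cdkn2b and Zfp352), Dmrta2 (Faf1 and Elavl4) and Dmrtb1 (Glis1 and Lrp8) passed in any comparison.

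The promoters of Dmrt2 and Dmrt3 are printed because these neighbours behaved differently. The 300-base sequences, which run from before to just after the annotated start, are those of RefSeq on GRCm38.p6, and 5 of the 6 members matched an entry (none for Dmrt1). Capitals mark CCAAT, the box bound by NF-Y, on either strand, so that it reads as ATTGG on the other.
Dmrt2, chr19:25672161-25672460, plus strand: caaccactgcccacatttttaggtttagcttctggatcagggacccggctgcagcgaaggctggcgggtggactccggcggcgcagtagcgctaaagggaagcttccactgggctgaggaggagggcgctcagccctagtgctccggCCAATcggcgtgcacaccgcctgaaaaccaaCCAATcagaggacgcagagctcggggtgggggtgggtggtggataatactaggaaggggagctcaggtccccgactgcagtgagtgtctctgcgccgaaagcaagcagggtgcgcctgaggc
Dmrt3, chr19:25610287-25610586, plus strand: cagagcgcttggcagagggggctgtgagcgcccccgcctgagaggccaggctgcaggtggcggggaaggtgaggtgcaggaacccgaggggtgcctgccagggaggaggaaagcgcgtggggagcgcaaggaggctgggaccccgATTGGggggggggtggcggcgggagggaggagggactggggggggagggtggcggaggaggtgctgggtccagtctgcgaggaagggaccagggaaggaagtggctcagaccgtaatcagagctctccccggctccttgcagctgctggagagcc
The Dmrt2 window holds 2 CCAAT matches and the Dmrt3 window 1, and 37.4% of 32851 promoters of this length hold at least 1. Their GC content was 62.7% and 70.7%, both above the promoter median of 52.7%, and neither has the letters TATAAA, which 13.6% of promoters hold. These matches describe the letters and were not tested as sites.

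Genes with patterns like those of the members were sought among 10576 genes above the median signal, by the root mean square (RMS) difference of log2 signals after each gene's own mean over the 8 arrays was taken off. For Dmrt2, whose own RMS was 0.79, these were Zdhhc2 (RMS difference 0.192), H2ac4 (0.227), Trpc1 (0.242), Slc27a2 (0.244) and Crybg1 (0.246). They encode a palmitoyltransferase, a histone H2A, a cation channel, a fatty acid transporter and a crystallin-related protein. Zdhhc2 had signals of 6.50, 6.33 and 6.65 in short culture, 8.18, 7.72 and 8.33 in young long culture, and 8.35 and 8.41 in serial long culture. Its arrays separated long from short culture by more than 1 log2 unit, as did those of Dmrt2 except in young long-culture replicate 2. Genes chosen for likeness to Dmrt2 differ between the groups by choice, so no test is given for them.

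The smaller variation of the other members leaves less to match. For Dmrt1 (own RMS 0.21) the nearest were Cdca7, Tceanc, Rcor2, Kpna3 and Pik3r4, at RMS differences of 0.042 to 0.047. For Dmrtb1 (own RMS 0.20) they were Tbc1d5, Golph3, Tns2, Wwc2 and Dab2ip, at 0.075 to 0.087. Dmrt3 (own RMS 0.13) was nearest Wwp1, Spata6, Zfp62, Map3k3 and Mob1a, and Dmrta2 (own RMS 0.17) nearest Col7a1, Smim1, Vgll2, Tmem213 and Lingo4. The lists of the 5 members share no gene.

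Around DMRT1 and DMRTB1, 38 germ cell regulators were followed, all of them measured. In young long against short culture 12 rose, 3 fell and 23 did not pass, with a median difference of 0.22, beside -0.04 over all genes. In serial long culture 8 rose and 2 fell, with a median of 0.25 beside -0.01 over all genes. Among all probe sets 5.43% rose and 5.83% fell in young long culture, and 3.58% and 5.15% in serial long culture. The count of 15 fell to 8 without young long-culture replicate 1 or 3, and to 7 with arrays centred on the germ cell markers. Most of those markers, Tex101 and Zbtb16 among them, are themselves among the 38 regulators. Such centring thus takes off part of the regulators' own shared change and is no independent check. The count of 10 fell to 0 without serial long-culture replicate 2. None passed between serial and young long culture.

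Stra8, the retinoic acid target that DMRT1 is known to repress, had signals of 6.65, 6.81 and 7.69 in short culture, 7.78, 8.24 and 8.54 in young long culture, and 8.71 and 8.93 in serial long culture. The short-culture signals lay within the range of the genes of unrelated organs, 3.02 to 7.70. The long-culture arrays all lay above the short-culture ones, by a narrow margin at short-culture replicate 3. It rose by 1.14 ± 0.25 (SE, limma adjusted p = 0.0173) in young long culture, a call lost without any 1 of young long-culture replicates 2 and 3 and short-culture replicate 1 (limma adjusted p 0.0524 to 0.0791). It rose by 1.77 ± 0.28 in serial long culture (limma adjusted p = 0.00544), lost without serial long-culture replicate 2 (0.0979). Stra8 and Dmrt1 signals were both higher in long culture, the latter without passing.

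Sohlh1, which DMRT1 is known to promote, had signals of 8.58, 8.59 and 8.69 in short, 7.89, 8.12 and 8.38 in young long, and 8.64 and 8.76 in serial long culture. It fell by 0.49 ± 0.12 (SE, limma adjusted p = 0.0288) in young long culture, and the serial arrays lay at the short-culture level (0.09 ± 0.14, limma adjusted p = 0.802). The fall was lost under 6 of 18 alternatives, among them the removal of young long-culture replicate 1 or 2 or short-culture replicate 1 or 3 (limma adjusted p 0.0583 to 0.110). Sohlh2, its partner in spermatogonial differentiation, rose by 0.62 ± 0.12 (limma adjusted p = 0.00898) and 0.71 ± 0.13 (limma adjusted p = 0.00861), though not with arrays centred on the germ cell markers, where the limma adjusted p values were 0.0872 and 0.0848. Without serial long-culture replicate 2 the latter call was also lost.

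Kit, the receptor of differentiating spermatogonia, had signals of 8.53, 8.89 and 9.30 in short, 10.32, 10.26 and 10.35 in young long, and 10.06 and 10.17 in serial long culture. Every short-culture array lay well below all long-culture arrays, which were close to each other. Against short culture Kit rose by 1.41 ± 0.16 (SE, limma adjusted p = 0.00123) and 1.21 ± 0.18 (limma adjusted p = 0.00411). The first call held under all 18 alternatives and the second under 17, the exception being the fit without serial long-culture replicate 2. Zbtb16, the repressor of undifferentiated spermatogonia that is also known as PLZF, differed by 0.27 ± 0.12 (limma adjusted p = 0.164) and 0.18 ± 0.13 (limma adjusted p = 0.505). Id4, a marker of the most primitive spermatogonia, fell by 0.80 ± 0.12 (limma adjusted p = 0.00353) and 0.83 ± 0.13 (limma adjusted p = 0.00570). Lin28a, another of the regulators, went the other way, rising by 0.45 ± 0.11 (limma adjusted p = 0.0219) and 0.74 ± 0.12 (limma adjusted p = 0.00575). These Lin28a calls were lost under 8 and 3 of 18 alternatives. Whether the share of undifferentiated cells differed was not tested. Meioc, which sustains meiotic prophase, rose by 1.11 ± 0.17 in young long culture (limma adjusted p = 0.00385) and was at 0.63 ± 0.19 in serial long culture (limma adjusted p = 0.0623).

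Further rises were those of Nanos3, an RNA-binding protein of spermatogonia, by 0.79 ± 0.13 (SE, limma adjusted p = 0.00524) and 0.86 ± 0.15 (limma adjusted p = 0.00675). Neurog3, a mark of progenitor spermatogonia, rose by 0.49 ± 0.11 (limma adjusted p = 0.0161) and 0.81 ± 0.12 (limma adjusted p = 0.00411). Tex101, a germ cell surface protein, rose by 0.51 ± 0.12 (limma adjusted p = 0.0205) and 0.82 ± 0.13 (limma adjusted p = 0.00566). The serial calls of these genes and of Id4 were lost without serial long-culture replicate 2. In young long culture the call of Neurog3 was lost without replicate 1 or 3 of that group. That of Tex101 was lost there without any 1 of the 3 young long-culture arrays. With arrays centred on the germ cell markers, the calls of Neurog3 in young long culture and of Tex101 in both comparisons were also lost.

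**Figure D4:**
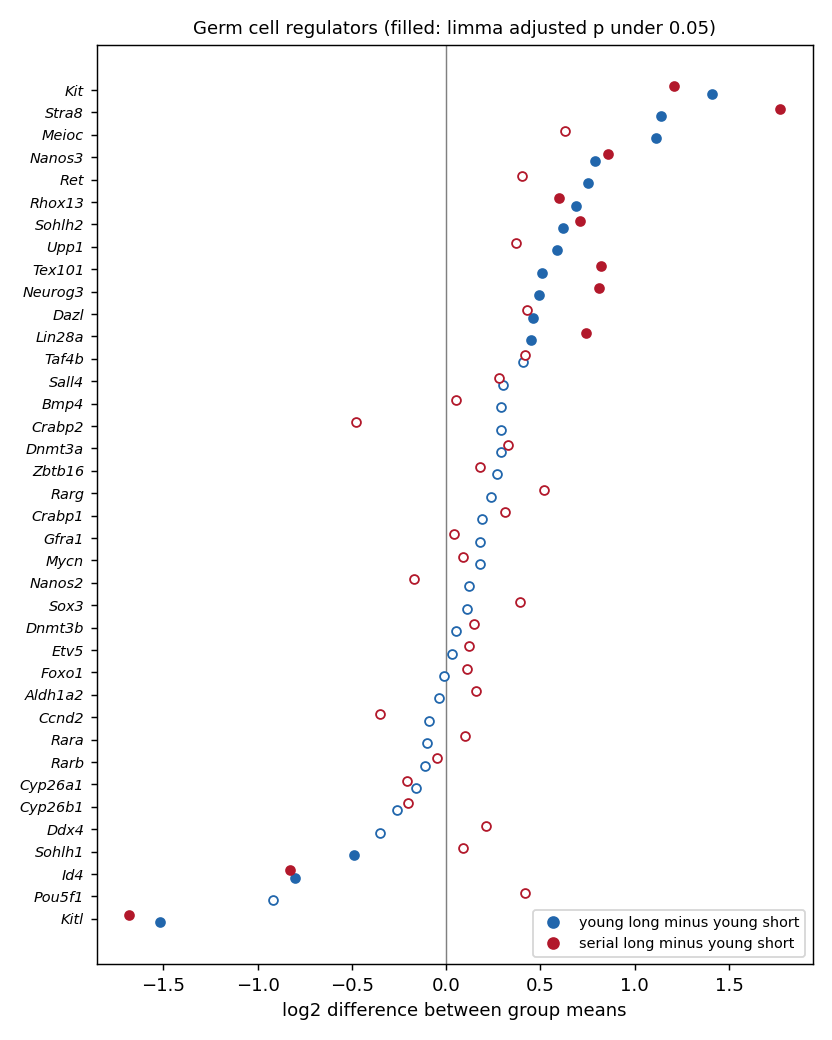
Log2 difference from short culture (x axis) of 38 germ cell regulators in young long (blue) and serial long culture (red), filled where the limma adjusted p is under 0.05. Kit (1.41 and 1.21) and Stra8 (1.14 and 1.77) lie at the top, Id4 (-0.80 and -0.83) near the bottom, and Zbtb16 (0.27 and 0.18) is open in both.

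The promoters of Stra8 and Sohlh1 are printed because both are known DMRT1 targets that moved in opposite directions in young long culture. Capitals mark ACANTGT, the palindromic centre of sites bound by DM domain proteins, in which known sites mostly have A or T in the middle. It was searched on both strands.
Stra8, chr6:34920698-34920997, plus strand: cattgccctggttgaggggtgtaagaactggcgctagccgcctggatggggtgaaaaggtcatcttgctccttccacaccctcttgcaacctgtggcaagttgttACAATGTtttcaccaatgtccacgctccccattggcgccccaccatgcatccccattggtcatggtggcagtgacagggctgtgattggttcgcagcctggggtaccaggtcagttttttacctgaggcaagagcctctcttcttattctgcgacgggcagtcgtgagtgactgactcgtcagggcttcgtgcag
Sohlh1, chr2:25847199-25847498, minus strand: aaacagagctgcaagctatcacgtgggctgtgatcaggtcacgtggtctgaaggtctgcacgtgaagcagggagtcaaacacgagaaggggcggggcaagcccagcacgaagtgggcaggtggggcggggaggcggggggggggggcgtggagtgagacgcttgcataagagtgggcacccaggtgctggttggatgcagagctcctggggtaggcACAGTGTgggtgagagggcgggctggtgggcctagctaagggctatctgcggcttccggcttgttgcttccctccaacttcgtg
Each window holds 1 match, that of Stra8 with A and that of Sohlh1 with G in the middle. Of 32851 promoters of this length 2476, or 7.54%, hold the letters. Among genes with an entry they were found in 3 of 31 of the regulators (Cyp26b1 is the third), 1 of 16 early meiosis genes (Tex12) and 1 of 5 members (Dmrta2, with 2 matches). A match is a description of the sequence and was not tested as a binding site.

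Early meiosis, the step that DMRT1 delays and DMRTB1 prepares, was followed with 20 genes. In young long culture 5 rose and 1 fell (median 0.28), and in serial long culture 6 rose and 0 fell (median 0.39). The medians of all genes were -0.04 and -0.01. Of all probe sets, 5.43% rose and 5.83% fell in the former comparison, and 3.58% and 5.15% in the latter. Syce2, of the synaptonemal complex, rose by 0.50 ± 0.12 (SE, limma adjusted p = 0.0259) and 0.94 ± 0.14 (limma adjusted p = 0.00411). The recombinase gene Dmc1 rose by 0.68 ± 0.18 (limma adjusted p = 0.0326) and 0.75 ± 0.20 (limma adjusted p = 0.0401). In serial long culture Tex15 rose by 0.68 ± 0.16 (limma adjusted p = 0.0257), Sycp3 by 0.51 ± 0.13 (limma adjusted p = 0.0386) and the cohesin Rec8 by 0.55 ± 0.15 (limma adjusted p = 0.0392). Tex12, also of the synaptonemal complex, fell by 1.38 ± 0.27 in young long culture (limma adjusted p = 0.0105). Its mean over the 8 arrays lay below the median of all probe sets, 6.94. Meiob rose by 0.87 ± 0.13 (limma adjusted p = 0.00394), from a signal of 3.55 to 4.42, which is below the lower quartile of the arrays. Except for Tex12 and Meiob, each of these calls was lost without serial replicate 2 (serial long culture) or young long-culture replicate 2 or 3 (young long culture). Rec8 was also called as higher in young long culture, a call lost under 8 of 18 alternatives. With an array left out, Rec8 passed in 1 of 8 fits in serial and 3 in young long culture. Sycp3 passed in 1, Dmc1 in 3 in either comparison, Tex15 in 4, and Syce2 in 7 in serial and 5 in young long culture. The count in young long culture was 2 or 3 without young long-culture replicate 2 or 3 or short-culture replicate 2. The count in serial long culture was 0 to 3 without serial replicate 1 or 2, young long-culture replicate 2 or 3, or short-culture replicate 1 or 2. With arrays centred on the germ cell markers both counts were 2.

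Gonadal sex determination, the process in which DMRT1 keeps Sertoli cells male, was followed with 20 measured genes of 21. In young long culture 4 rose and 1 fell (median -0.11), and in serial long culture 1 rose and 2 fell (median -0.14). The medians of all genes were -0.04 and -0.01, and 11.3% and 8.73% of all probe sets passed. Foxl2, named after its values were seen as the ovarian factor opposed by DMRT1, differed by -0.18 ± 0.14 (SE, limma adjusted p = 0.442) and 0.03 ± 0.15 (limma adjusted p = 0.956). Sox9, the Sertoli factor, had signals of 9.10, 8.79 and 8.36, then 8.26, 8.10 and 8.22, then 7.96 and 7.40. It was at -0.56 ± 0.18 in young long culture (limma adjusted p = 0.0763) and fell by 1.07 ± 0.21 in serial long culture (limma adjusted p = 0.0101; 0.170 without serial replicate 2).

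Other rises in young long culture were those of Wt1, of early gonads and Sertoli cells, by 0.90 ± 0.17 (limma adjusted p = 0.00838), the WNT agonist Rspo1 by 0.74 ± 0.13 (limma adjusted p = 0.00639) and the kinase Map3k4 by 0.50 ± 0.10 (limma adjusted p = 0.00912). Nr5a1, of steroid-producing cells, fell by 0.51 ± 0.11 (limma adjusted p = 0.0168), lost without young long-culture replicate 1 or 3. In serial long culture Fst, an activin inhibitor, fell by 1.08 ± 0.17 (limma adjusted p = 0.00510) and Wt1 rose by 0.73 ± 0.19 (limma adjusted p = 0.0344). Both calls were lost without serial replicate 2, and that of Wt1 under 12 of 18 alternatives. The count in young long culture was 3 without young long-culture replicate 1 and 1 with arrays centred on the germ cell markers, and that in serial long culture was 0 without serial replicate 2. Whether Dmrt1 signal came from germ cells or from Sertoli cells was not tested.

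Of 16 measured somite and forebrain partners of DMRT2, DMRT3 and DMRTA2, 3 lay above the median of all probe sets. In young long culture 1 rose (Lhx2, by 0.70 ± 0.20 SE, limma adjusted p = 0.0498, lost under 11 of 18 alternatives) and none fell. In serial long culture 1 fell (Emx2, by 0.68 ± 0.18, limma adjusted p = 0.0373, lost under 9 of 17, with signals below the median of all probe sets in all but 1 array) and none rose. The medians were -0.07 and 0.01. Of all probe sets 11.3% and 8.73% passed in these comparisons, so the partners passed no more often. Tcf15, a somite factor, was at 8.39, 8.05 and 8.43 in short, 8.27, 8.41 and 8.43 in young long, and 8.38 and 8.60 in serial long culture, and did not pass (0.08 ± 0.12, limma adjusted p = 0.723). It was chosen for mention after its values were seen, as 1 of the partners above the median.

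The remaining DM domain genes were measured by 3 probe sets of their own. Dmrtc2, also known as DMRT7 and needed for male meiosis, had signals of 7.68, 7.70 and 7.88 in short, 7.04, 7.95 and 7.67 in young long, and 8.29 and 8.08 in serial long culture. Both serial arrays were the highest, but no difference passed (-0.20 ± 0.19 SE, limma adjusted p = 0.547, and 0.43 ± 0.21, limma adjusted p = 0.264). Dmrtc1b, on the X chromosome, had signals of 6.14, 5.98 and 5.88, then 7.41, 6.53 and 6.72, then 5.87 and 6.38. It rose by 0.89 ± 0.21 in young long culture (limma adjusted p = 0.0204), lost without young long-culture replicate 1 or 3, and 1 of its 8 values exceeded the median of all probe sets. Dmrtc1a lay between 5.08 and 5.38 on all arrays, at background. The Dmrtc1 genes are near-identical copies, so their probe sets may share signal. Another 2 probe sets carry more than 1 symbol of the Dmrtc1 group and are assigned to no single gene. They went the other way from Dmrtc1b in young long culture, falling from 8.05 to 7.34 (-0.71, limma adjusted p = 0.00565) and from 8.07 to 7.29 (-0.79, limma adjusted p = 0.00639). The direction of the Dmrtc1 genes is therefore uncertain.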

How the data were processed

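Total RNA from cultured cells was labelled with biotin and measured on 8 1-colour Affymetrix arrays. The values are log2 signals deposited by the authors, for which the submitters' processing notes name Partek 6.4 and RMA. This method subtracts background, brings the arrays to a common distribution and combines the probes of a probe set. It gives no detection call, and signals near background are compressed. Scanner files were not analysed here.

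Of 35557 rows, 6613 with consecutive numbers and no gene name were taken as controls and not tested. The other 28944 were tested, and 21789 of them carry 1 symbol in the platform annotation, 1621 several and 5534 none. Only those with 1 symbol were named, giving 19938 genes by the brightest probe set over all 8 arrays. Groups follow the labelled donor and length of culture.

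All 3 pairs of groups were compared in 1 fit with limma 3.58.1 in R 4.3.3 (lmFit, contrasts, eBayes). The fit had 5 residual degrees of freedom and a prior of 6.28. Tests were two-sided at 0.05 after Benjamini-Hochberg adjustment across the 28944. The step was tested on simulated data. Errors of differences are SE from limma and errors of group means SD.

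The 6 members, the lists (other DM domain genes, germ cell regulators around DMRT1 and DMRTB1, early meiosis, gonadal sex determination, somite and forebrain partners, genes of unrelated organs, and markers of germ, Sertoli, Leydig, fibroblast and peritubular cells, macrophages and endothelium) and the tests were chosen with earlier results of these data known. Named were the members, up to 4 genes of each list and comparison with the smallest p among those past 0.05 (of the cell type lists only counts and sums are given), Stra8, Sohlh1, Sohlh2, Kit, Zbtb16 and Sox9, the nearest measured neighbours, the 5 genes most like each member above the median, and genes set beside a result. Alternatives were an intensity trend, array weights, only the groups compared, a filter on dim probe sets, all rows, quantile normalization, centring, a log2 change of at least 1, a replicate block and each array left out. Centring on germ cell markers was added after the data were seen.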

Additional observations from a re-analysis of the deposited data

How the results depend on the processing

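No result changed direction while past the threshold under any alternative. Of 321 member values over 18 alternatives, 303 kept their side of the threshold, among them all of Dmrt2 in young long against short culture and all in serial against young long culture. Dmrt1 in young long culture passed with array weights (0.36, limma adjusted p = 0.0209), median centring (0.43, 0.0425), an intensity trend (0.38, 0.0357) and probe sets above the median only (0.38, 0.0387), and over single arrays left out it ran from 0.29 to 0.46. Dmrtb1 in young long culture was lost with all rows (0.39, limma adjusted p = 0.0834), quantile normalization (0.38, 0.0513), germ cell marker centring (0.17, 0.451) and a log2 change of at least 1 (0.39), and ran from 0.32 to 0.44 over single arrays left out, passing in 2 of 8. Dmrt2 in serial long against short culture ran from 1.46 to 1.86 and was lost without serial replicate 2 (1.47).

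Same-numbered arrays of the young groups had deviations from their group means correlated at 0.08, 0.18 and 0.10. Differently numbered ones ran from -0.28 to 0.25. Since deviations within a group add up to 0, these values cannot tell whether the replicate numbers pair the samples. With the replicate block Dmrt1 was at 0.38 (limma adjusted p = 0.0478), Dmrtb1 at 0.39 (0.0642), and 4 probe sets were called between serial and young long culture.

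The members called in young long culture numbered 1 with all rows, quantile normalization, germ cell marker centring or a log2 change of at least 1, 3 with array weights, median centring, an intensity trend or probe sets above the median only, and 1 to 2 over single arrays left out; in serial long against short culture they were 0 to 1. Probe sets called in young long culture were 1542 with all rows, 5079 with array weights, 396 with a log2 change of at least 1, 1833 with germ cell marker centring (217 higher, 1616 lower, against 1573 and 1687) and 1085 to 3195 over single arrays left out. In serial long against short culture they were 1079 with all rows, 564 with a log2 change of at least 1, 1252 with only these groups, 1472 with germ cell marker centring (133 higher, 1339 lower, against 1037 and 1491) and 66 to 2817 over single arrays left out. Between serial and young long culture they were 22 with array weights, 15 with only these groups and 0 to 11 over single arrays left out, 11 without short-culture replicate 2. Where calls changed, the cause was not tested. The mean of all probe sets was not run, since each member has 1. Signals near background, as of Dmrta1, Dmrta2 and Dmrt2 in short culture, limit what differences could be seen.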
